A study of Rattus norvegicus with 6 samples.

Results

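The P2Y receptors are the 7 G protein-coupled receptors for extracellular nucleotides measured here as P2ry1, P2ry2, P2ry4, P2ry6, P2ry12, P2ry13 and P2ry14. They were taken from a comparison of the L5 dorsal root ganglia of male Wistar rats, 7 days after the L5 spinal nerve was cut (spinal nerve transection, SNT) or from naive animals. Each of the 6 arrays held a pool of ganglia from 4 rats, with 3 SNT and 3 naive pools, and polyadenylated RNA was hybridised to Affymetrix Rat Exon 1.0 ST arrays. The naive rats had no operation, so nerve transection and surgery as such cannot be told apart. Members were the probe sets annotated with exactly 1 gene symbol that matched a listed receptor. All 7 receptors had at least 1 such probe set, which gave 7 of 13378 genes and 23 of 226599 probe sets. A probe set covers about 1 exon, and the probe sets of a gene were combined by median polish into 1 log2 value per array.

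P2Y receptors sense nucleotides that leave cells through channels, vesicles or damage, and enzymes on the cell surface then trim these nucleotides stepwise to adenosine. P2Y1, P2Y2, P2Y4 and P2Y6 couple mainly to Gq, which activates phospholipase C and releases calcium from internal stores. P2Y12, P2Y13 and P2Y14 couple mainly to Gi, which lowers cyclic AMP and acts on potassium and calcium channels. In sensory ganglia, ATP is a signal between neurones, satellite glia and immune cells, and several P2Y receptors are known from macrophages and microglia as well as from neurones.

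Of the 7 receptors, P2ry6 and P2ry13 were higher after SNT, P2ry1 was lower, and 4 did not pass the test at a false discovery rate of 0.1. P2ry6 was 2.20-fold and P2ry13 1.91-fold higher in SNT ganglia, and P2ry1 was 1.77-fold lower. The injury changed many genes: 36.3% of all 13378 genes passed in either direction, 12.9% as higher and 23.3% as lower. The 3 of 7 receptors that passed were therefore a share close to that of all genes. The SNT and naive arrays did not overlap for 3 of 7 receptors, the same 3 that passed. This share, too, was close to that of all genes, of which 45.7% had groups that did not overlap. The median log2 fold change was 0.24 over the 7 receptors and -0.02 over all genes. With 7 genes this median is the value of P2ry14, a gene of low level with 1 probe set that did not pass.

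**Figure D1:**
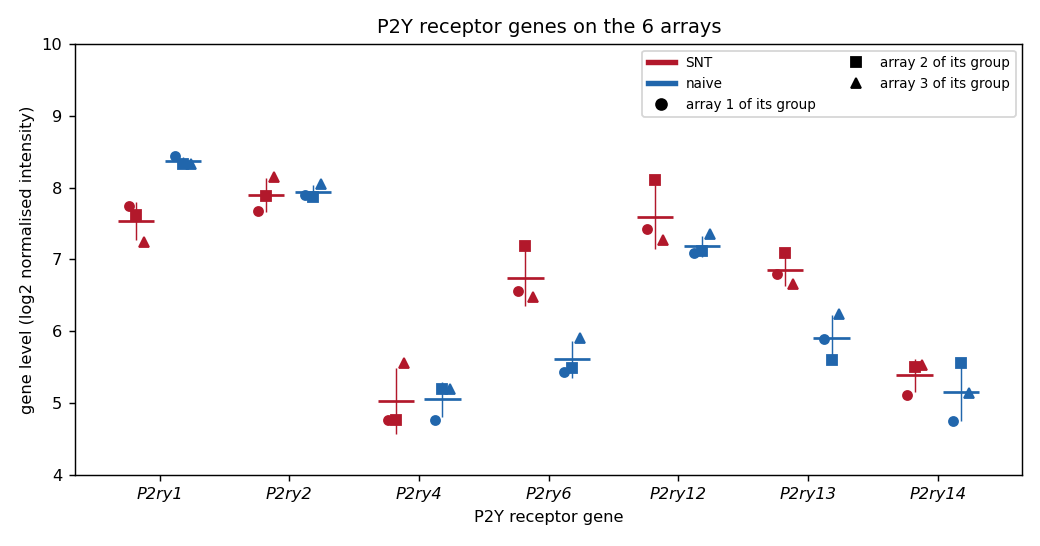
Gene level (log2 normalised intensity) of each P2Y receptor on the 6 arrays, SNT in red and naive in blue, with 1 symbol per array, the group mean as a horizontal line and the SD as a vertical line (n = 3 pools each). For P2ry1 all SNT arrays lay below all naive arrays, and for P2ry6 and P2ry13 all lay above them.

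Across probe sets, naive arrays correlated with each other at 0.984 to 0.986 and SNT arrays at 0.958 to 0.969. SNT 1 was nearer to the naive arrays (0.955 to 0.960) than the other SNT arrays were (0.938 to 0.947). With the other SNT arrays, SNT 1 correlated at 0.958 to 0.964, a range that overlapped its range with the naive arrays. Sensory neurone markers were present at a mean log2 level of 9.60 to 10.45 in SNT and 11.02 to 11.18 in naive ganglia, and none of the 17 was dim.

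Among the Gq-coupled receptors, P2ry1 encodes the ADP receptor that starts calcium release in platelets and many neurones. Its log2 level was 7.74, 7.62 and 7.24 on the SNT arrays, against 8.44, 8.32 and 8.33 on the naive arrays. Every SNT array lay below every naive array, with SNT 3 the lowest. The log2 fold change was -0.83 ± 0.14 (SE, n = 3 pools each; 95% interval -1.16 to -0.50, limma adjusted p = 0.00603). Among the 3120 genes that were lower, P2ry1 ranked 792 by size of change.

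P2ry2 encodes a receptor for ATP and UTP and stands beside P2ry6 in the genome. Its log2 level was 7.67, 7.88 and 8.15 on the SNT arrays, against 7.90, 7.87 and 8.06 on the naive arrays. The groups overlapped, with SNT arrays at both the lowest and the highest value. The log2 fold change was -0.04 ± 0.14 (95% interval -0.37 to 0.28, adjusted p = 0.844). A change of the size seen in P2ry1 or P2ry6 lay outside this interval, which holds for the median polish value. With its most variable probe set alone P2ry2 was at -0.83 (limma adjusted p = 0.196).

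P2ry4 encodes a receptor that responds to UTP, and in the rat to ATP as well. The log2 values were 4.76, 4.77 and 5.56 on the SNT arrays, against 4.76, 5.19 and 5.19 on the naive arrays. The groups overlapped, with SNT 3 the highest array. The mean lay below 5.50, the percentile 25 of all gene means, which was taken here as the level of dim genes. The log2 fold change was -0.02 ± 0.24 (95% interval -0.58 to 0.54, adjusted p = 0.962).

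P2ry6 encodes the UDP receptor, known for its part in phagocytosis by microglia. Its log2 level was 6.56, 7.19 and 6.48 on the SNT arrays, against 5.43, 5.49 and 5.91 on the naive arrays. Naive 1 and naive 2 lay just below 5.50, the level of dim genes. Every SNT array lay above every naive array, and SNT 2 was the highest. The log2 fold change was 1.14 ± 0.22 (SE, n = 3 pools each; 95% interval 0.63 to 1.65, adjusted p = 0.0089), the largest among the 7 receptors, and it ranked 230 of the 1731 genes that were higher.

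Among the Gi-coupled receptors, P2ry12 encodes the ADP receptor that is the target of antiplatelet drugs and a marker of resting microglia. Its log2 level was 7.42, 8.10 and 7.26 on the SNT arrays, against 7.08, 7.11 and 7.35 on the naive arrays. SNT 2 stood above the others, while SNT 3 lay within the naive values. The log2 fold change was 0.41 ± 0.22 (95% interval -0.10 to 0.92, adjusted p = 0.204) and was 0.16 without SNT 2. With each array centred on its median the change was 0.53 with an adjusted p of 0.0974, and the receptor then passed.

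P2ry13 encodes another ADP receptor, found mainly on cells of the immune system. Measured log2 levels were 6.80, 7.08 and 6.65 on the SNT arrays, against 5.90, 5.60 and 6.24 on the naive arrays. The groups did not overlap, and the nearest pair was SNT 3 and naive 3. The log2 fold change was 0.94 ± 0.19 (SE, n = 3 pools each; 95% interval 0.50 to 1.37, adjusted p = 0.0101), and its rank was 359 among the genes that were higher.

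P2ry14 encodes the receptor for UDP-glucose and other UDP-sugars. It was at log2 levels of 5.12, 5.50 and 5.53 on the SNT arrays, against 4.75, 5.55 and 5.13 on the naive arrays. The groups overlapped, and the highest value was a naive one. A single probe set carried this gene, its mean lay below the level of dim genes, and its log2 fold change was 0.24 ± 0.21 (95% interval -0.27 to 0.74, adjusted p = 0.466).

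**Figure D2:**
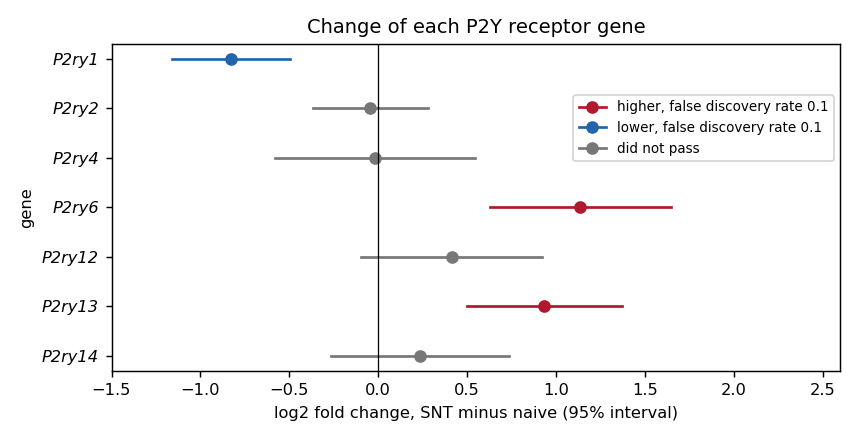
Log2 fold change of each P2Y receptor gene, SNT minus naive, as a point with its 95% interval, coloured by the outcome of the test at a false discovery rate of 0.1. The intervals of P2ry1 (-1.16 to -0.50), P2ry6 (0.63 to 1.65) and P2ry13 (0.50 to 1.37) lay clear of 0, and those of the other 4 receptors crossed it.

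The receptors of 2 neighbouring pairs in the genome, and the 2 receptors that were higher, were compared directly, as the difference of their log2 levels within each array. The estimated change of P2ry6 was 1.18 above that of its neighbour P2ry2, with differences of 1.23, 1.65 and 0.67 on the SNT arrays relative to the naive mean. That of P2ry13 was 0.52 above that of its neighbour P2ry12, with differences of 0.65, 0.25 and 0.66. In both pairs the SNT and naive arrays did not overlap, which gave an exact two-sided permutation p of 0.1, the smallest that 3 arrays against 3 allow (0.15 adjusted over the 3 pairs compared). An adjusted p under 0.1 was thus out of reach, so the test cannot decide whether 2 receptors differed in change. The changes of P2ry6 and P2ry13 differed by 0.20, with overlap (exact permutation p = 0.3, adjusted p = 0.3). This last pair was chosen because both receptors had passed in these data.

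The change was then followed through the single probe sets, each tested in a fit over all 226599 probe sets. Of the 23 P2Y probe sets, 6 were higher and 3 lower, where 15.9% of all probe sets passed, 5.16% as higher and 10.7% as lower. For P2ry1 all 4 probe sets had negative changes without overlap, between -1.14 and -0.79, and 3 passed. The exception was probe set 2, at 7.80, 7.41 and 6.30 on the SNT arrays, against 7.96, 8.31 and 8.06 on the naive arrays (log2 fold change -0.94, adjusted p = 0.156).

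P2ry6 had 7 probe sets, of which 6 had positive changes and 4 passed. The largest change was in probe set 7, at 8.13, 10.12 and 9.51 on the SNT arrays, against 7.37, 7.54 and 7.45 on the naive arrays, a log2 fold change of 1.80 ± 0.45 (adjusted p = 0.048). Probe set 6 was next, at 1.68 ± 0.32 (adjusted p = 0.021). The only one with a negative change, probe set 5 at -0.05, was dim and its groups overlapped. Probe set 4, at 0.82, was dim with overlap too and did not pass.

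P2ry13 had 3 probe sets with changes of 1.06, 0.96 and 0.55, and the first 2 passed (adjusted p = 0.024 and 0.095). The brightest of them, probe set 1, was at 8.82, 9.10 and 9.05 on the SNT arrays, against 7.92, 7.62 and 8.26 on the naive arrays. These groups were well apart, whereas those of probe set 3 overlapped.

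P2ry12 had 2 probe sets, too few for a test of the difference between them, and neither passed. Probe set 2 was at 7.81, 8.81 and 8.04 on the SNT arrays, against 7.46, 7.18 and 7.75 on the naive arrays, without overlap (log2 fold change 0.76, adjusted p = 0.154). Probe set 1 overlapped, with a log2 fold change of 0.07 (adjusted p = 0.90).

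In P2ry2, 3 probe sets changed by -0.21 to 0.18 with overlap. Probe set 4 was at 6.71, 6.87 and 5.71 on the SNT arrays, against 7.05, 7.23 and 7.52 on the naive arrays. Its groups did not overlap, but it did not pass (log2 fold change -0.83, adjusted p = 0.151). The 2 probe sets of P2ry4 pointed in opposite directions, at -0.32 and 0.28, and neither passed.

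**Figure D3:**
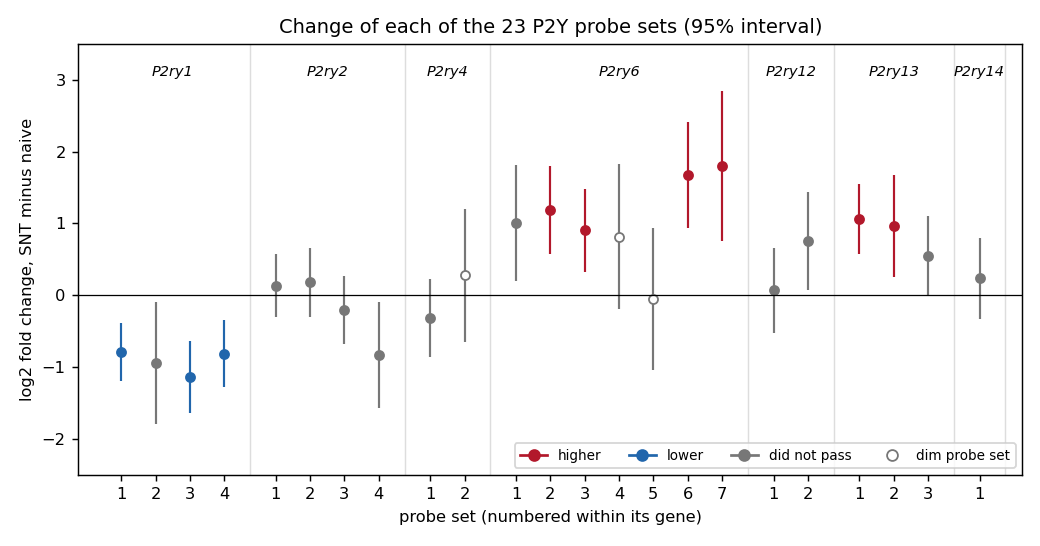
Log2 fold change, SNT minus naive, of each of the 23 P2Y probe sets with its 95% interval, numbered within its gene. All 4 probe sets of P2ry1 lay below 0 and 6 of 7 of P2ry6 above it. Open circles mark dim probe sets, with a mean below 5.11.

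Whether the probe sets of 1 gene changed unequally was tested for the 4 receptors with at least 3 of them, and 0 of 4 passed, where 18.9% of 12109 genes did (diffSplice F test in limma). The adjusted p was 0.940 for P2ry1, 0.149 for P2ry2, 0.263 for P2ry6 and 0.677 for P2ry13. Before adjustment P2ry2 alone lay under 0.05. The count depended on single arrays. Without SNT 1 both P2ry2 (adjusted p = 0.0562) and P2ry6 (adjusted p = 0.0368) passed, and without SNT 2 P2ry2 did (adjusted p = 0.0866).

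The promoter of P2ry1, the receptor that was lower, is shown for the base composition of its start region. It is the RefSeq sequence of GRCr8, 250 bases before to 50 bases after the gene start, on the strand of the gene, with each CG dinucleotide in capitals.
P2ry1, chr2:147391411-147391710, plus strand: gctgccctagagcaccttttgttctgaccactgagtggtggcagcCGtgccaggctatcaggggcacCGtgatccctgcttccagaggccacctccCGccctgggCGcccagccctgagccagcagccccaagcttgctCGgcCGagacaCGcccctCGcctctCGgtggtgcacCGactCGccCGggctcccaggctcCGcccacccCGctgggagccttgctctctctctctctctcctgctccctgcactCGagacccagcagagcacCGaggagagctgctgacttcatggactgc
The sequence had a GC content of 67.7% and 16 CG dinucleotides. Over 33465 rat promoters of the same length the medians were 51.7% and 7. That of P2ry2, whose start in the table lay 90 bases inside the gene, had a GC content of 73.0% with 33 CG dinucleotides. The table matched 5 of the 7 receptors, but for P2ry4, P2ry13 and P2ry14 the stretch lay further inside the gene than its first base in the gene table, so these 3 are not described as start regions. P2ry6 and P2ry12 had no entry.

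Motif letters were sought on both strands. The Sp1 letters GGGCGG stood 2 times in the P2ry1 and 3 times in the P2ry2 sequence, and occurred in 33.1% of all promoters. The PU.1 letters GAGGAA, the AP-1 letters TGANTCA, the CRE letters TGACGTCA and the TATA letters TATAAA were in 0 of these 2 sequences, and in 27.6%, 7.33%, 1.83% and 14.2% of all promoters. Neither sequence held more than 1 kind of these motifs, so none overlapped another.

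In the same gene table P2ry12, P2ry13 and P2ry14 lie on chromosome 2 within Med12l, which was not measured. Beside P2ry12 stands Igsf10, an immunoglobulin superfamily gene, which was higher by 1.54 ± 0.31 (adjusted p = 0.0110). Beside P2ry14 stands Gpr171, which was higher by 0.47 ± 0.15 (adjusted p = 0.0560). P2ry1 has Rap2b after it, a small GTPase measured by 1 probe set, at 0.93 ± 0.32 (adjusted p = 0.0676), opposite in direction to P2ry1. Fchsd2, which overlaps P2ry2, was at -0.24 (adjusted p = 0.414), and Arr3, which overlaps P2ry4, at 0.05 (adjusted p = 0.722). Atg16l2 after P2ry2 (0.09) and Awat1 before P2ry4 (0.19) did not pass, and Pdzd11 after P2ry4 fell by 0.42 (adjusted p = 0.0226). Mbnl1 and Arhgef17 were not measured.

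Several marker lists of cell types differed between SNT and naive ganglia in the same direction as receptors that passed. All 20 measured macrophage markers (of 21 listed) were higher in SNT ganglia, by 0.76 (Aif1) to 3.11 (Cd68) with a median of 1.60. Their mean log2 level was 8.57 to 9.69 in SNT and 7.17 to 7.65 in naive ganglia, and none was dim. Of the 20, 17 rose by more than P2ry6, 19 by more than P2ry13 and 20 by more than P2ry12. Over all genes 12.9% were higher, but this list was chosen with earlier results of these data known. The paper already names several of these markers among its most upregulated genes. The count of 20 and the place of the receptors against the list are therefore not independent of these data. In bulk tissue, fewer or more cells of a type and less or more RNA per cell cannot be told apart.

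Of the 6 measured microglia-type markers (of 10 listed) 4 were higher, with a mean log2 level of 7.46 to 7.94 in SNT and 6.73 to 6.88 in naive ganglia. The defining microglial genes Siglech and Sall1 were dim by their mean over all arrays. Siglech was among the 4, at 0.94 (adjusted p = 0.0316) without overlap, and Sall1 did not pass (0.28, adjusted p = 0.228). Olfml3, also among the 4, was not dim and was higher by 0.79 (limma adjusted p = 0.0078) without overlap. Slc2a5 did not pass (0.22, limma adjusted p = 0.111). The 2 that rose most, Cx3cr1 (1.92) and Csf1r (1.46), are also macrophage genes. The part of macrophages in the change of P2ry6 and P2ry13 was not tested.

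Of the 6 measured platelet markers (of 10 listed), which bear on the platelet receptors P2ry1 and P2ry12, 0 passed in limma, and 0 lay under an unadjusted p of 0.05. Their mean log2 level was 6.29 to 6.84 in SNT and 6.00 to 6.56 in naive ganglia, Gp5 was dim, and the largest change was Pf4 at 0.95 (adjusted p = 0.169). The red cell markers Slc4a1 (-0.74, adjusted p = 0.113) and Hbb (-0.22, adjusted p = 0.516), the 2 measured of 6 listed, did not pass either, and 1 of them, Slc4a1, lay under 0.05 before adjustment.

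Most sensory neurone markers were lower along with P2ry1. Of 17 measured (of 20 listed), 14 were lower and 0 higher, with a median of -0.93, and 9 fell by more than P2ry1. Over all genes 23.3% were lower, but the paper already lists several of these markers as downregulated. The count of 14 and the place of P2ry1 against the list are therefore not independent of these data. The 3 that did not pass were Tubb3 (-0.01, limma adjusted p = 0.960), Prph (-0.27, adjusted p = 0.114) and Uchl1 (-0.30, adjusted p = 0.102). The largest falls were in the sodium channels Scn11a (-3.44) and Scn10a (-2.78) of nociceptors. The part of this fall in that of P2ry1 was not tested.

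Among the satellite glia markers 3 of 8 were higher and 3 lower, led by Gfap (1.86) and Fabp7 (-1.31). Of the myelinating Schwann cell markers 2 of 6 were higher, Egr2 (0.83) and Mag (0.68). Of the endothelial markers 1 of 6 was higher, Tie1 (0.49), and Emcn was at -0.29 (adjusted p = 0.268). Of the T cell markers 4 of 6 were higher, led by Cd8a (2.37) and Cd4 (1.26). Cd3d and Cd2 were dim, and of these Cd2 was among the 4 (0.56, adjusted p = 0.0371). Cd3d (0.28, limma adjusted p = 0.270) and Cd247 (0.24, limma adjusted p = 0.114) did not pass. Cd4 already stood at a mean log2 level of 8.28 in naive ganglia, against 4.95 for Cd3d. Over all genes 12.9% were higher and 23.3% lower.

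**Figure D4:**
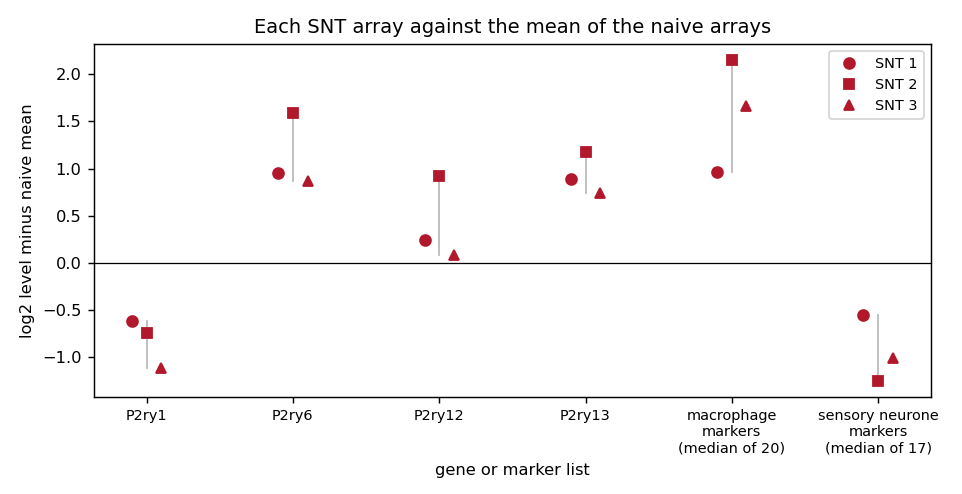
Log2 level of each SNT array minus the mean of the naive arrays, for 4 receptors and for the median of 20 macrophage and 17 sensory neurone markers, with 1 symbol per SNT array. SNT 2 was highest for P2ry6 (1.59), P2ry12 (0.92), P2ry13 (1.17) and the macrophage markers (2.15), and SNT 3 was lowest for P2ry1 (-1.12).

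The array by array pattern was compared with these lists as a description. Relative to the naive mean, P2ry6 was at 0.95, 1.59 and 0.87 on SNT 1, 2 and 3, and P2ry13 at 0.89, 1.17 and 0.74. The median macrophage marker was at 0.96, 2.15 and 1.66. All 3 were highest on SNT 2, but the receptors were lowest on SNT 3, where the markers were lowest on SNT 1. P2ry1 was at -0.62, -0.74 and -1.12, lowest on SNT 3, and the median sensory neurone marker at -0.55, -1.25 and -1.01, lowest on SNT 2.

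The genes most alike in pattern over the 6 arrays were sought among 6138 genes with at least 3 probe sets and an SD of at least 0.2. Nearest to P2ry1 were Slc16a14 (r = 0.996), Btbd6 (0.995) and Dffa (0.994). Nearest to P2ry6 were Aurkb (0.993), Sgo1 (0.992) and Cabp2 (0.991), and nearest to P2ry13 were Bcl3 (0.989), Sox7 (0.988) and Cnksr3 (0.986). Correlations above 0.9 were common, with 1113 genes for P2ry1, 633 for P2ry6 and 404 for P2ry13, since all these genes share the same 6 arrays and the difference between the groups.

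Beyond the receptors themselves, 60 of 70 listed genes of purinergic signalling were measured, in 7 lists. Of these, 20 were higher and 19 lower, and the remaining 21 did not pass. Their median log2 fold change was 0.15. Over all genes 12.9% were higher and 23.3% lower, which is the background for the counts of each list below.

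Relatives of the P2Y receptors that bind lipids, metabolites or ligands not yet settled were measured for 8 of 10, and 3 were higher and 0 lower (median 0.38). They were the lysophosphatidic acid receptors Lpar4 (0.87 ± 0.20, adjusted p = 0.0184) and Lpar6 (0.75 ± 0.17, adjusted p = 0.0151), and Gpr171, which was dim. With the most variable probe set for each gene none of these 3 passed (adjusted p = 0.212 for Lpar4, 0.128 for Lpar6 and 0.574 for Gpr171).

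The P2X channels, through which ATP opens a cation pore directly, split evenly, with 3 of 7 higher and 3 lower (median 0.15). P2rx7, the channel that drives release of interleukin-1 from macrophages, was higher by 1.53 ± 0.26 (adjusted p = 0.0065). P2rx6 fell by 1.76 ± 0.27 (adjusted p = 0.0045) and P2rx5 fell by 1.53 ± 0.27 (adjusted p = 0.0070). When its most variable probe set stood for the gene, P2rx7 was at 0.61 (adjusted p = 0.583) and did not pass.

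Of the 4 adenosine receptors, the Gi-coupled Adora1, which quiets nociceptors, fell by 1.93 ± 0.29 (adjusted p = 0.0043). Adora3 was higher by 0.68 ± 0.17 (adjusted p = 0.0222), and 2 did not pass (median -0.23). With the most variable probe set alone Adora3 lost its call (adjusted p = 0.132).

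The enzymes that turn over extracellular nucleotides were measured for 10 of 12 listed symbols, with 4 higher and 3 lower (median 0.27). Entpd3, which cuts ATP and ADP, fell by 2.21 ± 0.33 (adjusted p = 0.0044). Acp3, a phosphatase of nociceptors that makes adenosine from AMP, fell by 2.13 ± 0.22 (adjusted p = 0.0019). Enpp3, which splits nucleotides to monophosphates, was higher by 1.10 ± 0.23 (adjusted p = 0.0119), but with its most variable probe set it was at 0.67 (adjusted p = 0.586) and did not pass.

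Of the genes for nucleotide release and for the supply of UDP-sugars, 6 of 11 were measured, with 3 higher and 1 lower (median 0.34). The pannexin channel gene Panx1 was higher by 0.56 ± 0.09 (adjusted p = 0.0048), and its relative Panx2 fell by 1.46 ± 0.21 (adjusted p = 0.0040). Ugdh, which consumes UDP-glucose, the ligand of P2Y14, was higher by 0.91 ± 0.19 (adjusted p = 0.0110), a call that was lost with the most variable probe set alone (adjusted p = 0.174).

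In the Gq arm, 4 of 13 genes were higher and 6 lower, with a median of -0.0048. Gna14, a Gq-type alpha subunit, fell by 1.51 ± 0.19 (adjusted p = 0.0028), and the kinase gene Prkce fell by 1.39 ± 0.21 (adjusted p = 0.0046). Gna15, the alpha subunit of blood cells, was higher by 1.32 ± 0.18 (adjusted p = 0.0035).

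In the Gi arm, 2 of 12 were higher and 5 lower (median -0.18). The potassium channel genes Kcnj3 and Kcnj6 encode subunits that Gi opens. Kcnj3 fell by 1.62 ± 0.27 (adjusted p = 0.0055) and Kcnj6 fell by 1.24 ± 0.17 (adjusted p = 0.0033). Pik3cg, the phosphoinositide 3-kinase of leukocytes, was higher by 1.11 ± 0.25 (adjusted p = 0.0165).

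**Figure D5:**
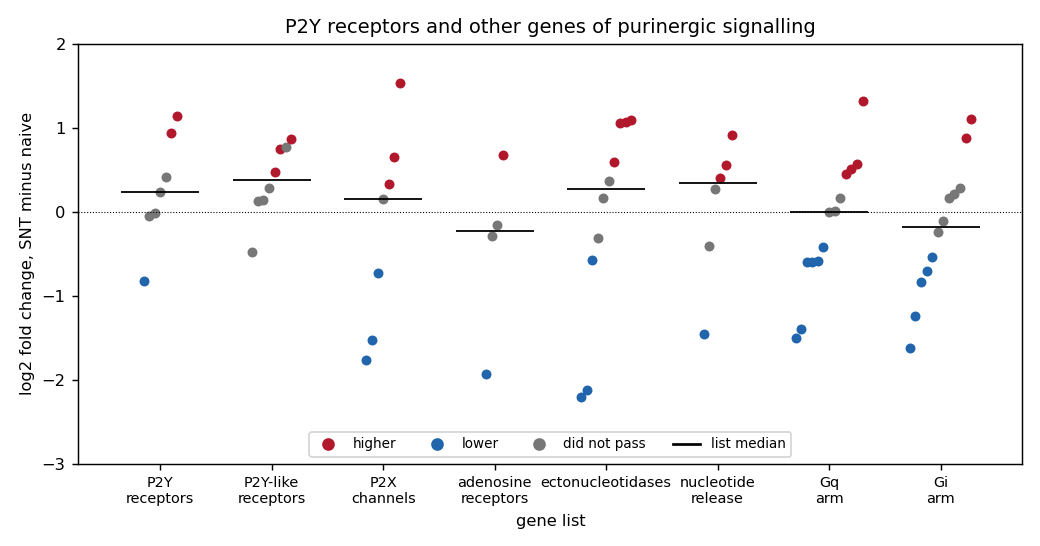
Log2 fold change, SNT minus naive, of each measured gene of the P2Y receptors and of 7 other lists of purinergic signalling, with 1 point per gene coloured by the test and the list median as a line. Medians ran between -0.23 for the adenosine receptors and 0.38 for the P2Y-like receptors, and 6 of the 7 other lists held genes that passed in both directions.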

How the data were processed

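The authors deposited log2 values of 226599 probe sets, made with oligo and RMA (background correction, quantile normalisation and median polish), as the submitters' processing notes name them. Their versions were not given in the sources used here. Quantile normalisation makes each change relative to the whole array, and a dim probe set still has a value. The medians of the deposited values were not level, at 6.77, 6.88 and 6.88 on the SNT arrays, against 6.98, 6.93 and 6.96 on the naive arrays. The values ran between 1.84 and 14.35, and 0 columns were left without a sample. No scan date or batch is given in the labels, so none was tested.

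Probe sets with 1 gene symbol in the platform annotation (164162; 2388 had several and 60049 none) were combined by median polish, with symbols updated through the GRCr8 gene table, so that Lpar6 stands in the annotation under an older symbol. The contrast of SNT minus naive was fitted with limma 3.58.1 in R 4.3.3 (lmFit, then eBayes), two-sided, with Benjamini-Hochberg adjustment over all features. A false discovery rate of 0.1 was applied, as in the study's methods. SE values are limma's. Each p-value sets the difference of the groups against the variation between pools within groups. For this limma takes a variance shared by both groups and moderates it across all features. With 3 pools per group, the number of arrays limits the precision. The functions were tested on simulated data.

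All receptors were named. Of each pathway list, the 3 largest changes past the threshold were named, of each marker list the 2 largest and dim defining markers, the 3 genes most alike to each receptor that passed, and the nearest genes in the gene table. Aif1, named as the end of a range, was chosen after its value was seen. So were Tubb3, Prph, Uchl1, Slc2a5 and Cd247, named as markers that did not pass, and Olfml3, named beside the dim microglia-type markers. The members and lists were chosen with earlier results of these data known. The alternatives were 2 other normalisations, other summaries and filters of probe sets, other variance settings, a stricter false discovery rate, the replicate number as a block, and leaving out each array or each probe set of a receptor. The last of these was chosen after seeing the data.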

Additional observations from a re-analysis of the deposited data

How the results depend on the processing

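P2ry6 passed in 23 of 23 alternatives (0.91 to 1.80), P2ry1 in 19 of 20 (-0.95 to -0.68) and P2ry13 in 18 of 19 (0.76 to 1.10). P2ry12 passed in 1 of 16 (0.16 to 0.76), with arrays centred on their median. With the most variable probe set for each gene, 1 receptor was higher and 0 were lower: P2ry1 was then at -0.94 (adjusted p = 0.174) and P2ry13 at 0.96 (adjusted p = 0.135), the pathway had 8 genes higher and all genes 722 higher. P2ry2 turned positive with centred arrays (0.0668), cyclic loess (0.0258), array weights (0.0660) and without its probe set 3 (0.0633) or 4 (0.0917), and P2ry4 with centred arrays (0.0936), the most variable probe set (0.28) and array weights (0.22). When each array was left out in turn, P2ry2 ran between -0.17 and 0.0706 and P2ry4 between -0.29 and 0.11, and P2ry1, P2ry6 and P2ry13 passed each time, with adjusted p up to 0.0322, 0.0405 and 0.0421. The counts then ran between 2 and 7 P2Y probe sets higher, 1 and 4 lower, 0 and 2 receptors with unequal probe sets, and 1004 and 2785 of all genes higher. The probe sets that were higher numbered 3 without SNT 2 and 2 without naive 1 or naive 2, and those that were lower 1 without naive 1 or naive 3. Gpr171 did not pass without SNT 2, SNT 3, naive 1 or naive 2 (0.38 to 0.45). The cause of these changes was not tested.

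With centred arrays the median change of all genes was 0.09, against -0.02, and 3074 were higher and 2397 lower. Cyclic loess gave 2380 and 2784, where the reported fit gave 1731 and 3120. P2ry1, P2ry6 and P2ry13 kept their direction under both. Same-numbered SNT and naive arrays did not deviate together (r = -0.07, -0.22 and 0.06 for the numbers 1 to 3). So few arrays cannot decide whether the number pairs them, and the labels do not say. With the replicate number as a block, 1447 genes were higher and 2625 lower, and no receptor changed its call (adjusted p = 0.0108 for P2ry1, 0.0162 for P2ry6 and 0.0251 for P2ry13). The low levels of P2ry4 and P2ry14 limit what could be seen.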
